A study of Mus musculus with 16 samples.

Results

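Keratins and the other genes of the epidermal barrier were examined in RNA from 16 melanoma tumours. The members were the genes whose symbols are those of numbered keratins (Krt), late cornified envelope genes (Lce), small proline-rich genes (Sprr), desmogleins (Dsg) and desmocollins (Dsc), joined by 12 listed genes: Anxa8, Nectin1, Perp, Asprv1, Tmem45a, Lor, Ivl, Flg, Trp63, Dsp, Pkp1 and Jup. Of 109 genes with such a symbol, 93 had at least 10 counts summed over the libraries and form the set, out of 46078 genes in the table. The 16 below that minimum included Flg, the gene of filaggrin and a listed member, which had a summed count of 1.

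Tumours grew from B16F10-GP cells, a subline of the pigmented mouse melanoma B16F10, set in Matrigel on the flanks of female C57BL/6 mice aged 6 to 8 weeks, and each of 4 groups had 4 libraries. The 5 Gy group was irradiated on day 10 with 5 Gy of X-rays, given once to the right flank. The group given 5 Gy with QH-II-066, called combined here, had that dose in the morning and then, starting that evening, 10 mg/kg of QH-II-066 daily by intraperitoneal injection for 7 days, and the QH-II-066 group had the drug by the same schedule without radiation. The fourth group is labelled untreated, whereas the protocol speaks of vehicle, and the 2 were taken as the same group. The labels name neither the flank whose tumour was sequenced nor the mouse behind each library, so the p-values reflect variation among the samples at hand, and that variation may be technical. All 4 groups carried the same tumour cells.

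Keratins are the intermediate filament proteins of epithelial cells, and each filament pairs a type I with a type II keratin. In the epidermis, basal keratinocytes make Krt5 and Krt14, cells that move upward exchange these for Krt1 and Krt10, and the outermost cells seal themselves with loricrin, involucrin and small proteins cross-linked into a cornified envelope. Desmosomes tie the filaments of neighbouring cells together. The hair follicle, a downgrowth of the same epithelium, has keratins of its own in the outer root sheath, the companion layer, the inner root sheath and the shaft, while Krt8, Krt18, Krt19 and Krt7 belong to simple, single-layered epithelia. None of these genes is a marker of melanocytes.

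Total counts ranged from 6994198 in combined replicate 4 to 40799942 in combined replicate 1. Levels are given as CPM, counts scaled to a common library size after TMM scaling, a correction for differences in library makeup, and a count of 0 allows up to 0.0796 to 0.447 CPM by library, taken as 3 counts and covering counting error only. The 7 melanocyte markers were counted in each library, with sums of 15826 to 26615 CPM. The libraries differed widely in the members. The 4 basal genes summed to over 10 CPM in 5 libraries, namely 5 Gy replicates 2 and 4 and combined replicates 2, 3 and 4, and these are called the libraries with epidermal transcripts. In bulk RNA fewer cells of a type and less RNA per cell cannot be told apart. That name describes 5 libraries picked by their values, and no test was made between them and the rest.

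**Figure D1:**
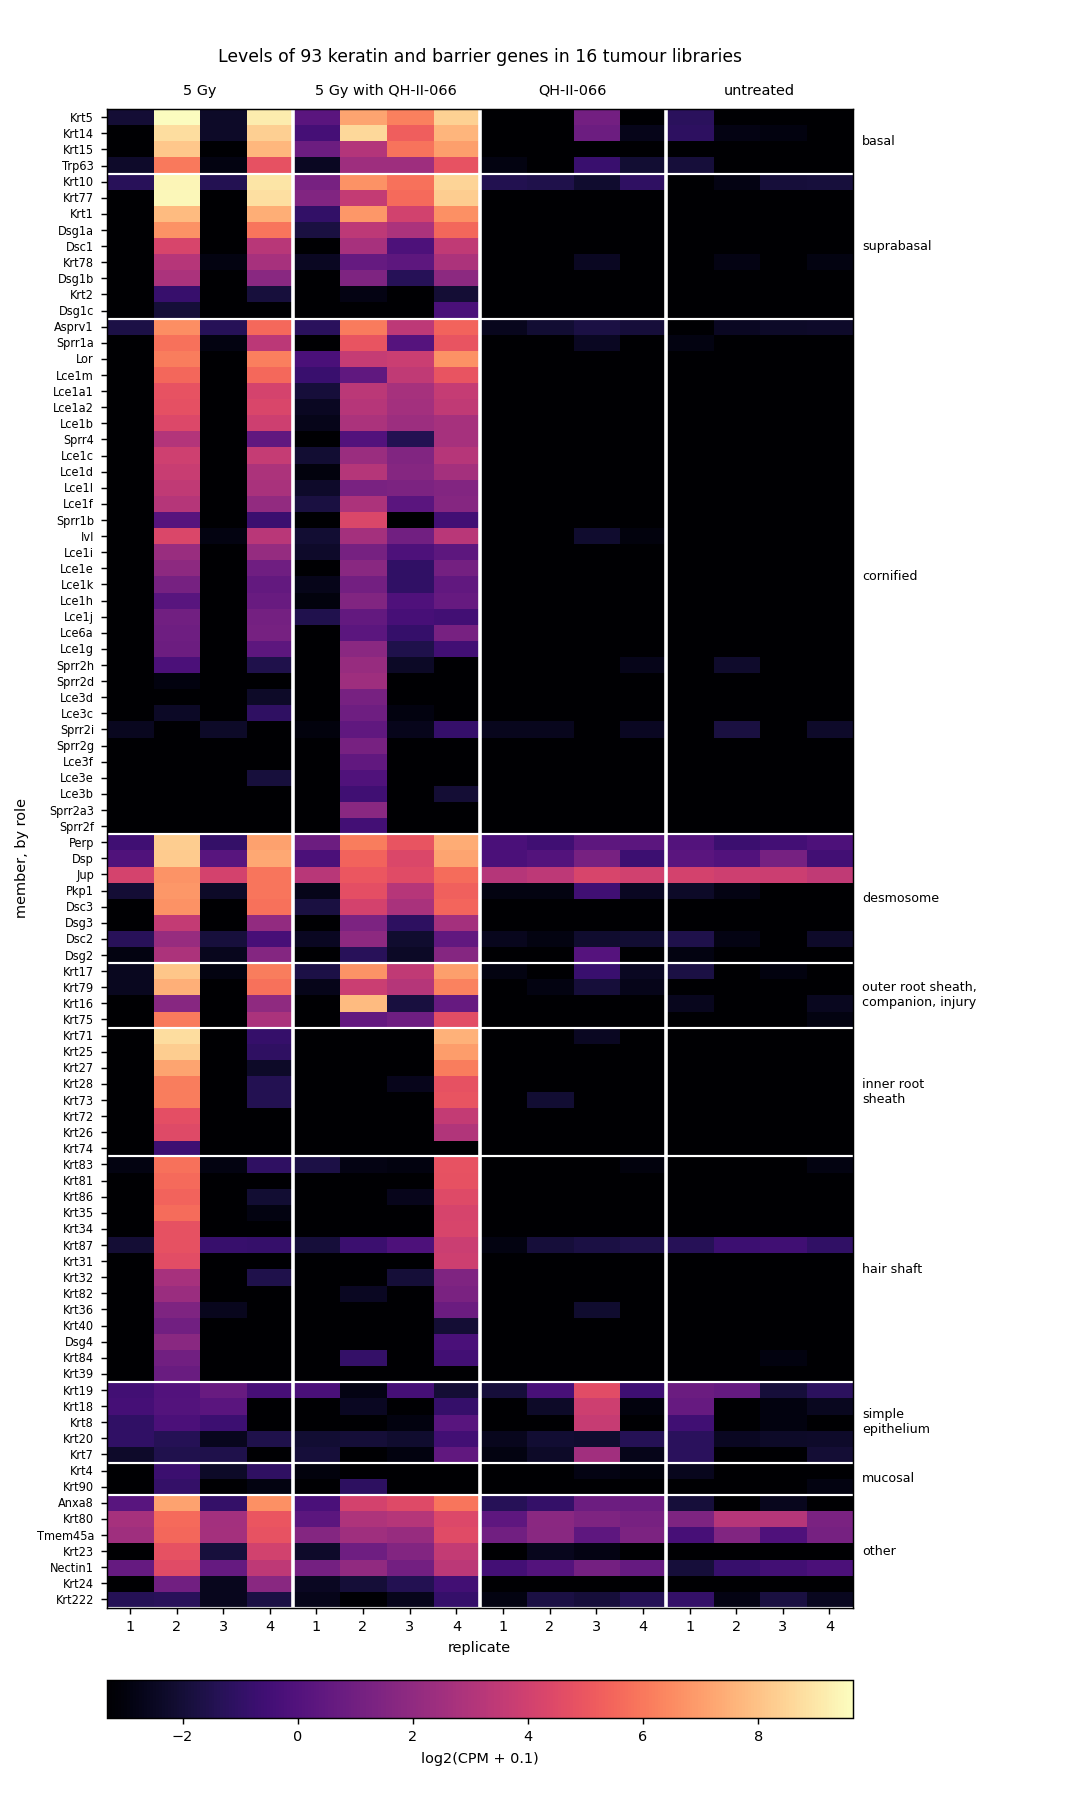
Each row is 1 of the 93 members, ordered by role, each column is 1 library, and the colour is log2(CPM + 0.1). Most roles are bright in 5 Gy replicates 2 and 4 and in combined replicates 2, 3 and 4, the inner root sheath and hair shaft blocks in 5 Gy replicate 2 and combined replicate 4, and the simple epithelial block in QH-II-066 replicate 3.

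Of the 93 members, 80 had over 90% of their summed CPM in the 5 libraries with epidermal transcripts, and 60 were at 0 in the 4 untreated tumours. The 80 include the 4 basal genes, by whose sum these libraries were picked. Here and below, such counts are given without the share over all genes, so they describe the members only. Summed over all members, the level was 37.5, 6929.9, 38.1 and 3437 CPM in 5 Gy replicates 1 to 4, 33.0, 1597, 532 and 3263 CPM in the combined tumours, 15.1, 22.2, 95.3 and 27.9 CPM in QH-II-066 tumours and 29.3, 31.3, 28.9 and 19.7 CPM in untreated tumours. In 5 Gy replicates 1 and 3 the sum thus lay within 10 CPM of the highest untreated sum, while in replicates 2 and 4 it was far above. Combined replicate 1 had a sum near those of the unirradiated tumours, but not in every role. Its suprabasal and cornified members summed to 5.65 and 2.89 CPM. These sums were at most 0.372 and 0.404 CPM in QH-II-066 tumours and 0.211 and 0.385 CPM in untreated tumours. Its basal sum, 3.54 CPM, lay below the 4.16 CPM of QH-II-066 replicate 3. Counts were found in combined replicate 1 for 46 members, against 25 and 32 in 5 Gy replicates 1 and 3. They were found for 19 to 31 members in QH-II-066 tumours and 18 to 24 in untreated tumours. Combined replicate 1 was also the library with the most counts.

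Basal keratinocyte genes, by whose sum the 5 libraries were picked, summed there to 176 to 1585 CPM and elsewhere to at most 4.16 CPM. Krt5 (ENSMUSG00000061527, chromosome 15 at 101707070 to 101712891 on the minus strand, mm10), the type II keratin of basal cells, averaged 55.2 CPM per kilobase over the 16 libraries, above every other member on that scale. It stood at 0.142, 799.6, 0.101 and 573 CPM in 5 Gy tumours and 1.08, 144, 74.2 and 341 CPM in combined tumours. In QH-II-066 tumours it was 0, 0, 1.98 and 0 CPM, and in untreated tumours 0.334, 0, 0 and 0 CPM. The combined tumours all lay above the untreated ones, whereas the 5 Gy replicates 1 and 3 lay below untreated replicate 1. Krt14, its type I partner, followed at 0, 439, 0.101 and 325 CPM in 5 Gy tumours and 0.649, 388, 38.6 and 199 CPM in combined tumours, and reached 1.70 CPM in QH-II-066 and 0.368 CPM in untreated tumours. Krt15, a keratin of basal cells and of the stem cells of the follicle bulge, was at 0 in all QH-II-066 and untreated tumours and in 5 Gy replicates 1 and 3. Elsewhere it stood at 282 and 210.0 CPM after 5 Gy and at 1.73, 8.39, 58.0 and 129.7 CPM in combined tumours. Trp63, which encodes p63, the transcription factor that stratified epithelia depend on, was at 0.107, 64.9, 0.0338 and 27.9 CPM in 5 Gy and 0.0811, 5.33, 5.25 and 28.6 CPM in combined tumours, and it was counted in 3 of 4 QH-II-066 tumours and in 1 of 4 untreated tumours.

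Suprabasal genes divided the libraries in the same way. Krt10 (chromosome 11 at 99385254 to 99389364 on the minus strand), the type I keratin of cells above the basal layer, stood at 0.320, 693, 0.270 and 506 CPM in 5 Gy tumours and 2.24, 103, 57.0 and 359.9 CPM in combined tumours. It was 0.264, 0.234, 0.121 and 0.372 CPM in QH-II-066 and 0, 0.0385, 0.160 and 0.176 CPM in untreated tumours, so that the irradiated and untreated groups did not overlap, although 5 Gy replicates 1 and 3 were below 1 CPM. Krt77, a type II keratin of suprabasal mouse epidermis that averaged 32.5 CPM per kilobase, against 51.4 for Krt10, stood at 699 and 447 CPM in 5 Gy replicates 2 and 4. It was 2.73, 12.1, 49.5 and 311 CPM in combined tumours and 0 in the other 10 libraries. Krt1, the usual type II partner of Krt10, averaged 15.8 CPM per kilobase and stood at 219 and 171 CPM after 5 Gy and 0.406, 113, 16.2 and 98.8 CPM in combined tumours. In combined replicate 2 Krt77 was low beside Krt1: the ratio of Krt77 to Krt10 counts was 0.118 there, against 0.864 to 1.01 in the other 4 libraries, and that of Krt1 to Krt10 was 1.10, against 0.275 to 0.339. Among the desmosomal cadherins of the upper layers, Dsg1a reached 102 CPM and Dsc1 19.1 CPM in 5 Gy replicate 2, and both were at 0 in the 8 unirradiated tumours. Dsg1a, Dsg1b and Dsg1c are near-identical copies whose shares are uncertain. Krt2, a keratin of thick epidermis such as the ear, sole and tail, did not exceed 0.470 CPM.

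Against untreated libraries at 0, a ratio is a lower bound, set here by 3 counts over the untreated group. On that basis the mean of Krt77 was at least 11043-fold higher after 5 Gy and at least 3616-fold higher in combined tumours, and the mean of Krt15 at least 4736-fold and at least 1906-fold higher. These means rest on the libraries with epidermal transcripts.

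The cornified layer was the largest role, with 32 members, of which 28 were at 0 in all untreated tumours. Lor (chromosome 3 at 92080271 to 92083142 on the minus strand), the gene of loricrin, the main protein of the envelope, stood at 0, 70.1, 0 and 73.1 CPM in 5 Gy tumours and 0.730, 12.4, 13.6 and 103 CPM in combined tumours, and at 0 in the 8 unirradiated tumours. It was highest in combined replicate 4, which had the fewest counts of the 16 libraries. Asprv1, a protease that trims profilaggrin, was the cornified member with the highest mean per kilobase (10.9 CPM per kilobase) and had counts in 15 of 16 libraries. It stood at 0.214, 95.7, 0.304 and 47.9 CPM in 5 Gy tumours, 0.324, 67.5, 10.4 and 43.0 CPM in combined tumours, 0.0659, 0.134, 0.202 and 0.159 CPM in QH-II-066 tumours and 0, 0.0769, 0.0959 and 0.106 CPM in untreated tumours, with no overlap between either irradiated group and the untreated one. Ivl, the gene of involucrin, an early envelope protein, reached 20.4 CPM in 5 Gy replicate 2 and 9.82 CPM in combined replicate 4, and was at 0 in untreated tumours.

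Among the late cornified envelope genes, the 14 of the Lce1 type each had over 90% of their summed CPM in the 5 libraries, but were not highest in the same one. Lce1m was at 45.5 and 48 CPM in 5 Gy replicates 2 and 4 and at 0.487, 1.25, 11.2 and 30.2 CPM in combined tumours. Lce1a1 reached 29.1 CPM and Lce1a2 26.9 CPM in 5 Gy replicate 2, but the pair are near-identical copies. The Lce3 genes, whose human counterparts are induced when the barrier is damaged, were counted mainly in combined replicate 2. There Lce3d stood at 2.23 CPM and Lce3c at 1.80 CPM, and no other library exceeded 0.373 CPM for Lce3c. The small proline-rich genes parted likewise. Sprr1a, a cross-linked envelope protein, was highest in 5 Gy replicate 2 at 55.7 CPM and stood at 29.6 and 29.8 CPM in combined replicates 2 and 4, while Sprr1b was at 20.3 CPM in combined replicate 2 and at most 1.0 CPM in the others. In all, 12 of the 32 cornified members had over 50% of their summed CPM in combined replicate 2. Among them are Sprr2 genes, which are near-identical copies with uncertain counts.

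Promoters were compared because members of a role were counted together. RefSeq promoter sequences (build GRCm38.p6) were matched for 64 of the 93 members and searched on both strands over the 250 bases before the start. The letters TATAAA, those of the TATA box, were present in 26 of 64 members (40.6%), against 12.4% of 32851 promoters in the table. They were present in 7 of 7 inner root sheath members, 5 of 8 hair shaft members and 12 of 30 cornified members. They were also present in 1 of 4 suprabasal and 1 of 4 simple epithelial members. The few matched members of the basal, desmosome, outer root sheath, mucosal and remaining roles had none. Many members are neighbours in gene clusters, so their promoters may not be independent. TGANTCA, the letters of an AP-1 site, was found in 8 of 64 members (12.5%), all of them among the 30 cornified ones (26.7%), against 6.75% of all promoters. CCAAT was found in 34.4% of the members and 33.8% of all promoters. The motifs do not overlap in the sequences shown, and a match is a description of letters, not a bound site. The 120 bases before the start are given for 2 inner root sheath genes, Krt25 (chr11:99322952-99323071, minus strand) and Krt28 (chr11:99374904-99375023, minus strand), and for 2 cornified genes that differed in pattern, Lor (chr3:92083143-92083262, minus strand) and Sprr1b (chr3:92438780-92438899, minus strand). Capitals mark TATAAA and TGANTCA.
Krt25: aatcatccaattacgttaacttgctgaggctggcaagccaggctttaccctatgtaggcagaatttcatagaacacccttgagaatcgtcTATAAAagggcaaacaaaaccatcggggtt
Krt28: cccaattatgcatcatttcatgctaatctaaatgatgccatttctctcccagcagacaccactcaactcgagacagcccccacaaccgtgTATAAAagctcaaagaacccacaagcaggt
Lor: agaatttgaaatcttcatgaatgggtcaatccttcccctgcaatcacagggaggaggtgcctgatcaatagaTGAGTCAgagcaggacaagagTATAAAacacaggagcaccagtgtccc
Sprr1b: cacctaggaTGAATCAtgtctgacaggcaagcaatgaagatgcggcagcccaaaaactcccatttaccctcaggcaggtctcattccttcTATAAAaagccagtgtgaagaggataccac
Read 5′ to 3′ on the strand of the gene, TATAAA began at -30 in Krt25, Krt28 and Sprr1b and at -27 in Lor, counted from the start. TGANTCA began at -48 in Lor and at -111 in Sprr1b, and was not found in the other pair.

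**Figure D2:**
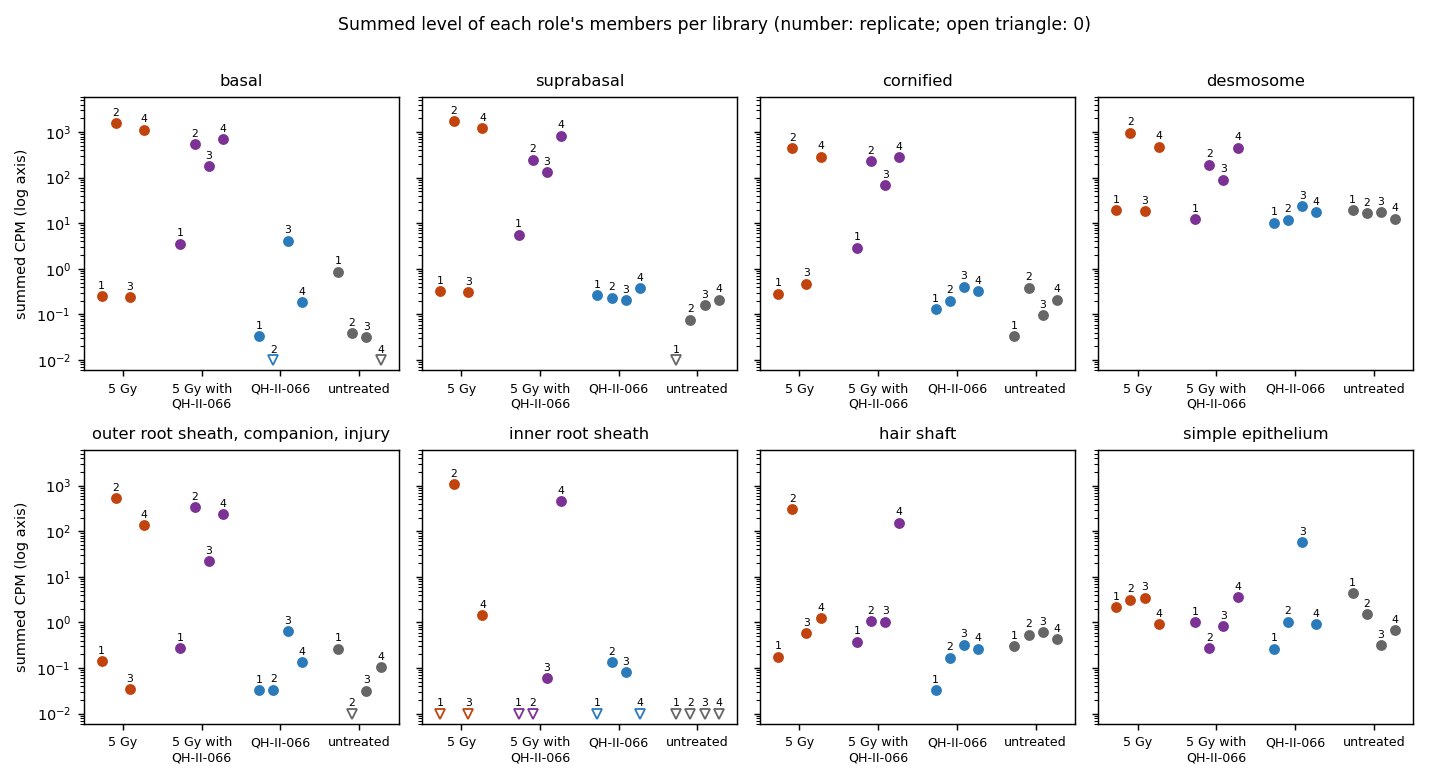
Points are libraries, numbered by replicate, and the log axis gives the summed CPM of the members of 8 roles in each group. Suprabasal and cornified sums separate 5 Gy replicates 2 and 4 and combined replicates 2 to 4 from the rest. Basal sums do so too, but these libraries were picked by them. Inner root sheath sums reach 1072 and 463 CPM in 5 Gy replicate 2 and combined replicate 4. Simple epithelial genes reach 57.8 CPM in QH-II-066 replicate 3.

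Desmosome genes of many layers ranged from genes counted in all 16 libraries (Jup, Perp and Dsp) to Dsg3, counted in 5. Jup (chromosome 11 at 100368958 to 100397763 on the minus strand), the gene of plakoglobin, which also serves adherens junctions, stood at 17.7, 105, 16.8 and 61.5 CPM in 5 Gy tumours, 9.33, 32.1, 23.6 and 51.1 CPM in combined tumours, 8.73, 10.4, 18.8 and 15.9 CPM in QH-II-066 tumours and 17, 14.9, 14.5 and 11.1 CPM in untreated tumours. It was thus counted at over 8 CPM in each library, and the groups overlapped. Perp, a desmosome protein of the p53 and p63 programmes, was at 0.569, 319, 0.439 and 136 CPM in 5 Gy tumours and 1.70, 70.4, 29.5 and 168 CPM in combined tumours, against 0.500 to 0.936 CPM in untreated tumours. Dsp, the gene of desmoplakin, which anchors keratin filaments to the plaque, was at 0.854, 303, 1.05 and 158 CPM in 5 Gy and 0.757, 42.2, 20.6 and 146 CPM in combined tumours, against 0.598 to 2.14 CPM in untreated tumours. Both were thus counted at about 1 CPM in tumours with hardly any Krt5. Pkp1, a plaque protein that strengthens epidermal desmosomes, and the cadherins Dsc3 and Dsg3 of the lower layers were different. Pkp1 reached 115 CPM in 5 Gy replicate 2 and at most 0.10 CPM in untreated tumours, while Dsc3, at 101 CPM in 5 Gy replicate 2, and Dsg3, at 12.1 CPM there, were at 0 in the 8 unirradiated tumours.

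The follicle's outer sheath, companion layer and injury keratins were found in the same 5 libraries, with unequal makeup. Krt17, a keratin of the outer root sheath that also appears in wounded epidermis, stood at 0.0712, 275, 0.0338 and 68.5 CPM in 5 Gy tumours and 0.216, 106, 11.3 and 131 CPM in combined tumours, and at most 0.200 CPM in untreated ones. Krt79, a keratin of the upper follicle and the sebaceous duct, reached 182 CPM in 5 Gy replicate 2 and 77.3 CPM in combined replicate 4, and Krt75, of the companion layer, 66.2 and 25.2 CPM in the same libraries. Krt16 (chromosome 11 at 100246091 to 100248902 on the minus strand), which wounded or rapidly dividing epidermis makes, had a pattern of its own. It stood at 0, 3.17, 0 and 3.87 CPM in 5 Gy tumours and 0, 221, 0.179 and 1.49 CPM in combined tumours, and at most 0.0703 CPM in untreated tumours. Combined replicate 2 alone was high. Its partners Krt6a and Krt6b, which the symbol pattern leaves out because their names end in a letter, stood at 162 and 158 CPM there, and at no more than 27.3 and 0.0678 CPM elsewhere, with the pair too alike for their shares to be certain.

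Keratins of the inner root sheath, the sleeve that moulds the growing hair, were counted almost wholly in 5 Gy replicate 2 and combined replicate 4. The 8 members summed to 0, 1072, 0 and 1.46 CPM in 5 Gy tumours and 0, 0, 0.0597 and 463 CPM in combined tumours, to at most 0.134 CPM in QH-II-066 tumours and to 0 in untreated tumours. Krt71 (ENSMUSG00000051879, chromosome 15 at 101733950 to 101743109 on the minus strand) had the highest mean per length of the 8 (17.6 CPM per kilobase), at 428 CPM in 5 Gy replicate 2 and 186 CPM in combined replicate 4. Krt25, whose promoter stands above with that of Krt28, reached 312 and 128 CPM in this pair, Krt27 145 and 70.6 CPM, Krt28 69.1 and 28.1 CPM, and Krt73 68.5 and 29.6 CPM. 5 Gy replicate 4, second only to replicate 2 in Krt5, held 0.441 CPM of Krt71. Each of the 8 inner root sheath members had over 90% of its summed CPM in the pair. The pair was named after these values were seen, so the count is a description and not a test.

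Hair shaft keratins followed the inner root sheath. The 14 members summed to 0.178, 302, 0.574 and 1.22 CPM in 5 Gy tumours, 0.379, 1.06, 1.04 and 154 CPM in combined tumours, 0.0330, 0.167, 0.323 and 0.265 CPM in QH-II-066 tumours and 0.301, 0.538, 0.608 and 0.422 CPM in untreated tumours. Krt83 reached 56.2 CPM in 5 Gy replicate 2 and 28.7 CPM in combined replicate 4, Krt35, an early keratin of the shaft, 51.5 and 18.5 CPM, Krt81 48.5 and 27.8 CPM, Krt86 42.1 and 22.9 CPM, and Krt34 28.0 and 18.9 CPM. Krt81, Krt83 and Krt86 are near-identical copies. Outside the pair Krt34 was at 0 and the other 4 did not exceed 0.373 CPM, while Krt87 had counts in all 16 libraries and lay between 0.301 and 0.576 CPM in untreated tumours. Of the 14, 12 had over 90% of their summed CPM in the pair, which was named after the values were seen. Keratin-associated proteins, the matrix of the hair, were not members and moved likewise: Krtap8-1 was at 82.1 CPM in 5 Gy replicate 2 and 47.6 CPM in combined replicate 4, Krtap7-1 at 77.5 and 33.5 CPM, and both at no more than 0.102 CPM elsewhere. In the list of follicle regulators and shaft genes, the 61 of 64 with at least 10 summed counts added up to 1234 and 576 CPM in the pair and at most 8.21 CPM in the other libraries.

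**Figure D3:**
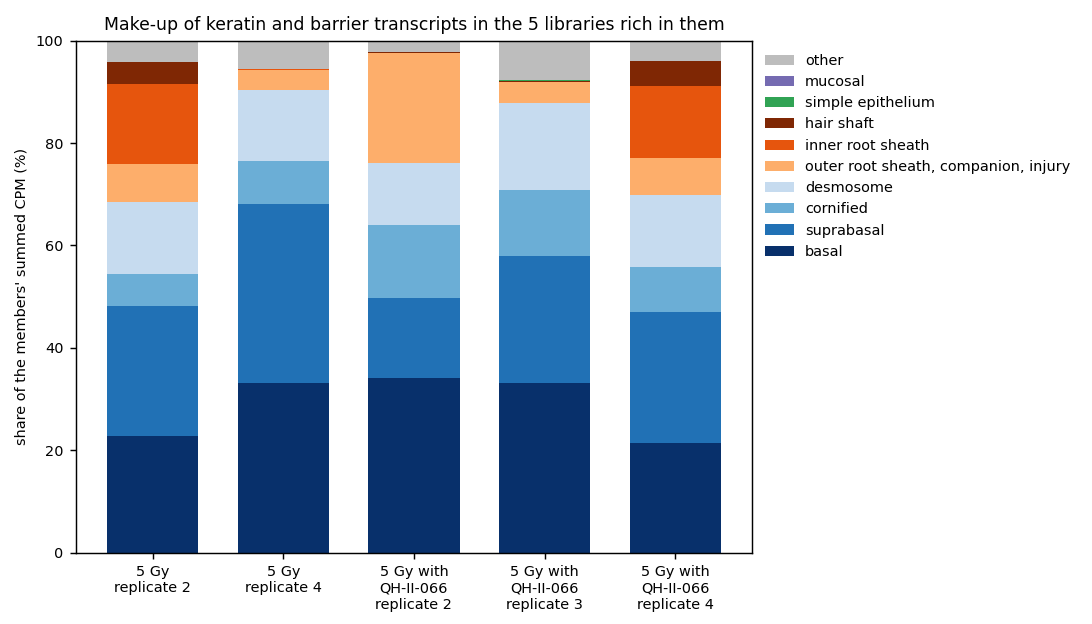
Stacked bars give the share of each role in the members' summed CPM, in percent, for the 5 libraries with epidermal transcripts. Inner root sheath genes take 15.5% and 14.2% in 5 Gy replicate 2 and combined replicate 4 and under 0.1% in the other bars, and outer sheath and injury keratins take 21.5% in combined replicate 2.

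Within the 5 libraries the mixture of roles was not constant. Basal genes made up 22.9% and 33.1% of the members' summed CPM in 5 Gy replicates 2 and 4, and 34.2%, 33.1% and 21.4% in combined replicates 2, 3 and 4. Suprabasal genes made up 25.2% and 35.0% in the 5 Gy pair, and 15.6%, 24.8% and 25.7% in the combined libraries. Combined replicate 2 was thus the lowest in suprabasal share, and it was the highest in cornified share at 14.2%, close to the 13% of combined replicate 3, against 8.69% in combined replicate 4 and 6.35% and 8.39% in 5 Gy replicates 2 and 4. The ratio of Krt14 to Krt5 counts was 0.549 and 0.568 in the 5 Gy libraries, 0.520 and 0.583 in combined replicates 3 and 4, and 2.70 in combined replicate 2. Krt15 to Krt5 was lowest in that library at 0.0582, against 0.352 to 0.781 in the other 4, and Krt16 to Krt17 was 2.08 there against at most 0.0564. By contrast, Krt10 to Krt5 kept between 0.714 and 1.05 in all 5, and Krt25 to Krt71 was 0.727 and 0.688 in the pair with inner root sheath transcripts. Krt14, Krt16 and Krt17 are similar in sequence, so their ratios depend on how shared fragments were counted. These ratios have no replicate error, since they are of single libraries.

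Simple epithelial keratins kept apart from the epidermal ones. Krt19 (chromosome 11 at 100140810 to 100148665 on the minus strand), a keratin of ducts and glands, stood at 0.605, 0.909, 1.55 and 0.678 CPM in 5 Gy tumours, 0.730, 0.0392, 0.657 and 0.149 CPM in combined tumours, 0.165, 0.701, 24.4 and 0.557 CPM in QH-II-066 tumours and 1.67, 1.42, 0.160 and 0.352 CPM in untreated tumours. QH-II-066 replicate 3 was high and the other 15 libraries overlapped. Krt18 and Krt8, the filament pair of simple epithelia, were at 14.9 and 12.6 CPM in that library and at no more than 1.47 and 1.04 CPM elsewhere. Krt7, found with Krt19 in glandular ducts, was at 5.74 CPM there against at most 1.34 CPM, and Krt20, of the gut lining, did not exceed 0.595 CPM in any library. QH-II-066 replicate 3 also held 1.98 CPM of Krt5 and 1.70 CPM of Krt14, but 0 counts of Krt1, Krt77 and Lor. None of the 5 simple epithelial members had over 90% of its summed CPM in the libraries with epidermal transcripts. The mucosal keratins Krt4 and Krt90 did not exceed 0.502 and 0.439 CPM.

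**Figure D4:**
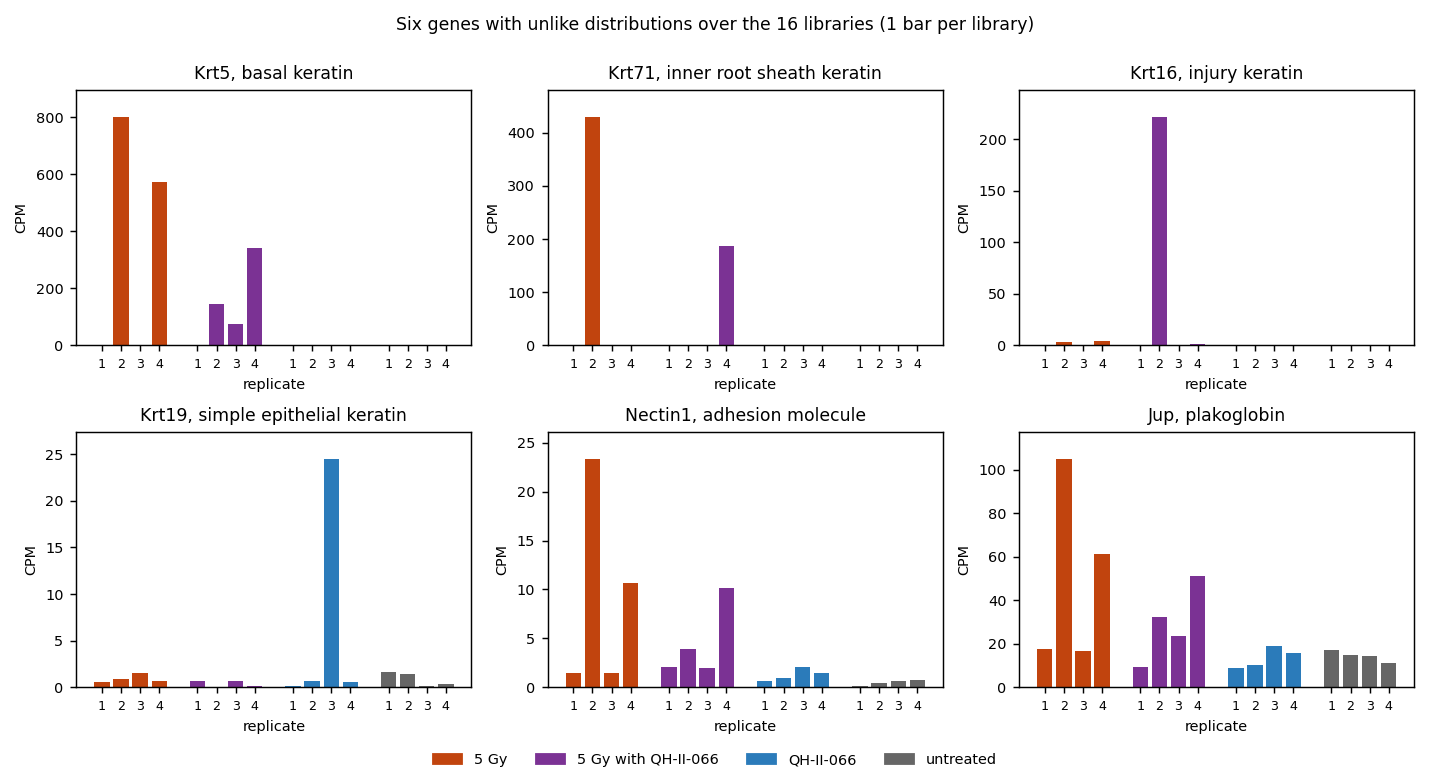
Bars are CPM on linear axes, 1 bar per library, in the order 5 Gy, combined, QH-II-066 and untreated. Krt5 is high in 5 libraries, Krt71 in 2, Krt16 in combined replicate 2 and Krt19 in QH-II-066 replicate 3, while Nectin1 and Jup have counts in each library.

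Among the remaining members, Nectin1, Tmem45a, Anxa8 and Krt80 had counts in tumours of each group. Nectin1 (ENSMUSG00000032012, chromosome 9 at 43744576 to 43807454 on the plus strand), an adhesion molecule of adherens junctions, stood at 1.42, 23.3, 1.42 and 10.7 CPM in 5 Gy tumours, 2.06, 3.92, 1.97 and 10.1 CPM in combined tumours, 0.626, 0.935, 2.06 and 1.43 CPM in QH-II-066 tumours and 0.167, 0.462, 0.608 and 0.774 CPM in untreated tumours. Each irradiated library lay above each untreated one, including 5 Gy replicates 1 and 3. Tmem45a (chromosome 16 at 56805161 to 56886166 on the minus strand), a membrane protein abundant in differentiating keratinocytes, was at 5.52, 44.9, 6.08 and 28.5 CPM in 5 Gy tumours, 2.97, 5.41, 4.57 and 23.7 CPM in combined tumours, 1.88, 3.34, 1.21 and 2.44 CPM in QH-II-066 tumours and 0.668, 2.77, 0.831 and 2.11 CPM in untreated tumours, again with no overlap of either irradiated group with the untreated one. Anxa8 (chromosome 14 at 34085981 to 34100571 on the plus strand), an annexin of stratified epithelia, was at 1.03, 139, 0.439 and 100.4 CPM in 5 Gy tumours, 0.730, 16.9, 22.5 and 60.9 CPM in combined tumours, 0.297, 0.434, 1.74 and 1.62 CPM in QH-II-066 tumours and 0.167, 0, 0.0640 and 0 CPM in untreated tumours. Its QH-II-066 libraries lay above the untreated ones as well. Krt80, a keratin of many epithelia, differed from these in that untreated replicates 2 and 3, at 9.08 and 8.73 CPM, lay above 5 Gy replicates 1 and 3, at 6.33 and 5.98 CPM. Krt23 was at 0 in untreated tumours and reached 27.8 CPM in 5 Gy replicate 2.

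Most members lie in 4 clusters. The type I keratins on chromosome 11 hold 20 members within 0.981 Mb (99279959 to 100261029), and chromosome 15 holds 23 members within 0.682 Mb (101349571 to 102032026), the type II keratins with Krt18, a type I keratin. The epidermal differentiation complex on chromosome 3 holds 31 members within 0.939 Mb (92080271 to 93019060), and the desmosomal cadherins on chromosome 18 hold 9 within 0.644 Mb. A cluster could hold more than 1 library pattern: Krt5, high in the 5 libraries, Krt71, high in 2 of these, and Krt8, high in QH-II-066 replicate 3, lie in the chromosome 15 cluster. Within a cluster, the inner root sheath genes Krt25, Krt26, Krt27 and Krt28 on chromosome 11, and Krt71, Krt72, Krt73 and Krt74 on chromosome 15, each had over 90% of their summed CPM in 5 Gy replicate 2 and combined replicate 4. These libraries were named from the values of the same genes.

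Tumours given 5 Gy were set against untreated ones to ask what radiation did without the drug. Of the members, 3 rose and 0 fell: Nectin1, Tmem45a and Anxa8. No keratin or envelope gene passed, and in most of these 5 Gy replicates 1 and 3 stood near the untreated level. Nectin1 averaged 9.20 ± 10.4 CPM in 5 Gy tumours and 0.503 ± 0.257 CPM in untreated tumours (SD, n = 4 each). The log2 difference fitted by edgeR was 4.18 ± 0.91 (adjusted p = 0.0409). Here and below, ± on a log2 difference is an approximate SE. It is the size of the difference divided by the square root of the F statistic of edgeR's test. Tmem45a averaged 21.2 ± 19.1 CPM in 5 Gy and 1.59 ± 1.01 CPM in untreated tumours, fitted by edgeR as 3.74 ± 0.82 on the log2 scale (adjusted p = 0.0409). Anxa8 averaged 60.3 ± 70.6 CPM in 5 Gy and 0.0578 ± 0.0789 CPM in untreated tumours, fitted by edgeR as 9.87 ± 2.19 on the log2 scale (adjusted p = 0.0462). In each of the 3, 4 of 4 libraries of 5 Gy lay above the untreated ones. Krt10 was at 11.56 ± 2.67 (edgeR adjusted p = 0.0513), Asprv1 at 8.94 ± 2.18 (0.0579), Krt5 at 11.89 ± 3.04 (0.0641), Perp at 7.29 ± 1.89 (0.0657), Trp63 at 8.94 ± 2.4 (0.0704), Lor at 13.01 ± 4.30 (0.188) and Jup at 1.80 ± 0.56 (0.107). Where untreated libraries were at or near 0, as for Lor, the fitted fold change, and with it the approximate SE, depends on the small count added by the fit.

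The test was edgeR's two-sided quasi-likelihood test with Benjamini-Hochberg adjustment at 0.05 over the 16101 genes that passed a filter on low counts, where 1.25% of genes were called higher and 0.00621% lower. Of the 93 members 53 were tested. The 8 inner root sheath, 2 mucosal and all but 1 of the 14 hair shaft members were not. Some roles were tested in part: 21 of 32 cornified, 7 of 9 suprabasal, 3 of 5 simple epithelial and 5 of 7 remaining members. A member that passed the filter only through libraries where it was high had to differ. The counts below thus describe the tested members and no more. The 53 had a median log2 fold change of 9.53, against -0.08 over all tested genes, and 48 had an unadjusted p under 0.05. DESeq2 called 38 members higher, where it called 6.20% of 19461 genes higher and 0.123% lower. It was run without the filter on low counts, so its member counts, here and below, are not out of the 53. How many members it tested is not given. In 7 members (Anxa8, Asprv1, Dsg2, Krt10, Nectin1, Pkp1 and Tmem45a) each 5 Gy library lay above each untreated one, as in 5.97% of the tested genes. Dsg2 and Pkp1 did so by 1 and 3 counts in the lowest library, below the 0.115 CPM that 3 counts allow in an untreated one, and the other 5 lay above that level too, as did 5.84% of the tested genes. Member counts from fits that drop libraries, here and below, are given without the share of all genes called in those fits. They therefore cannot show whether a change in calls was particular to the members. The count of 3 was 0 without 5 Gy replicate 2 or 4, combined replicate 3, QH-II-066 replicate 2 or 4, or any single untreated library, 1 without QH-II-066 replicate 3, 5 without combined replicate 1, while it was 16 when 5 Gy replicate 1 was left out and 19 when 5 Gy replicate 3 was. A fit without the 5 libraries with epidermal transcripts, picked by the members' own values, had a loss of calls built in. Log2 fold changes there were 1.49 for Nectin1, 1.87 for Tmem45a and 3.53 for Anxa8, from 2 libraries of 5 Gy.

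In combined against untreated tumours no member passed, with a median difference near that after 5 Gy. Krt10 was at 10.35 ± 2.60 (edgeR adjusted p = 0.298), Anxa8 at 8.58 ± 2.16, Krt5 at 10.59 ± 2.97, Asprv1 at 8.68 ± 2.17, Krt16 at 10.49 ± 3.23 and Nectin1 at 3.11 ± 0.88. The lowest edgeR adjusted p among the members was 0.298, while 47 had an unadjusted p under 0.05, and edgeR called 0% of all tested genes. DESeq2 called 27 members higher, where it called 1.25% of 16258 genes higher and 0.0738% lower. The median over the 53 members was 8.87, against -0.0028 over all tested genes. In 31 tested members each combined library lay above each untreated one, against 2.53% of all tested genes. In 10 of the 31 the lowest combined library, at 0.0270 to 0.108 CPM, did not exceed the 0.115 CPM that 3 counts allow in an untreated library, so that no separation was detectable for them at this depth. The other 21, against 2.13% of all tested genes, included Krt5, Krt14, Krt15, Krt10, Krt1, Krt77, Lor, Ivl, Asprv1, Perp and Nectin1. Combined replicate 1, the lowest of its group in these keratins, held 1.08 CPM of Krt5, 2.24 CPM of Krt10, 2.73 CPM of Krt77 and 0.730 CPM of Lor. This comparison and the one above share the untreated tumours.

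QH-II-066 alone was set against untreated tumours to ask what the drug did without radiation. No member passed (edgeR, 0% of all tested genes called; lowest adjusted p among the members 0.546). Of the 53, 1 member, Krt19, had an unadjusted p under 0.05, at 2.83 ± 1.26, through replicate 3, and Krt8 was at 4.33 ± 2.13 and Krt18 at 3.22 ± 1.87. Anxa8 was at 3.99 ± 2.32 (edgeR adjusted p = 0.546), and it was the member whose QH-II-066 libraries all lay above the untreated ones, as in 1.37% of tested genes, and above the 3-count level, as in 1.33%. DESeq2, which called 0.0322% of genes higher and 0.0121% lower, called 1 member, Krt79, which had 0 counts in the untreated tumours and at most 0.162 CPM in QH-II-066 tumours. Krt10 was at 1.40 ± 3.48 and Jup at -0.10 ± 0.55.

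Whether the drug changed the response to radiation was asked by setting combined against 5 Gy tumours and by the interaction. No member passed in either (edgeR, 0% of all tested genes called in each). Against 5 Gy, the member with an unadjusted p under 0.05 was Krt16, at 4.98 ± 2.24 (edgeR adjusted p = 0.253), a difference that lay in combined replicate 2. Krt5 was at -1.30 ± 1.75, Krt10 at -1.21 ± 1.55, Jup at -0.81 ± 0.55 and Tmem45a at -1.26 ± 0.74, and the median over the 53 members was -0.84, against -0.06 over all tested genes. In the interaction, the difference of combined from 5 Gy less that of QH-II-066 from untreated, Krt19 was at -3.95 ± 1.78 and Krt18 at -6.50 ± 2.98, both with an unadjusted p under 0.05 (edgeR adjusted p = 0.700 and 0.702), and Nectin1 at -2.39 ± 1.17. For Krt19 and Krt18 the value rests largely on QH-II-066 replicate 3, which held 70.2% and 75.3% of their summed CPM. DESeq2 called 0 members against 5 Gy, where it called 0.598% of genes higher and 0.324% lower, and 1 member, Krt79, lower in the interaction, as were 0.343% of genes, with 0.0109% higher.

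**Figure D5:**
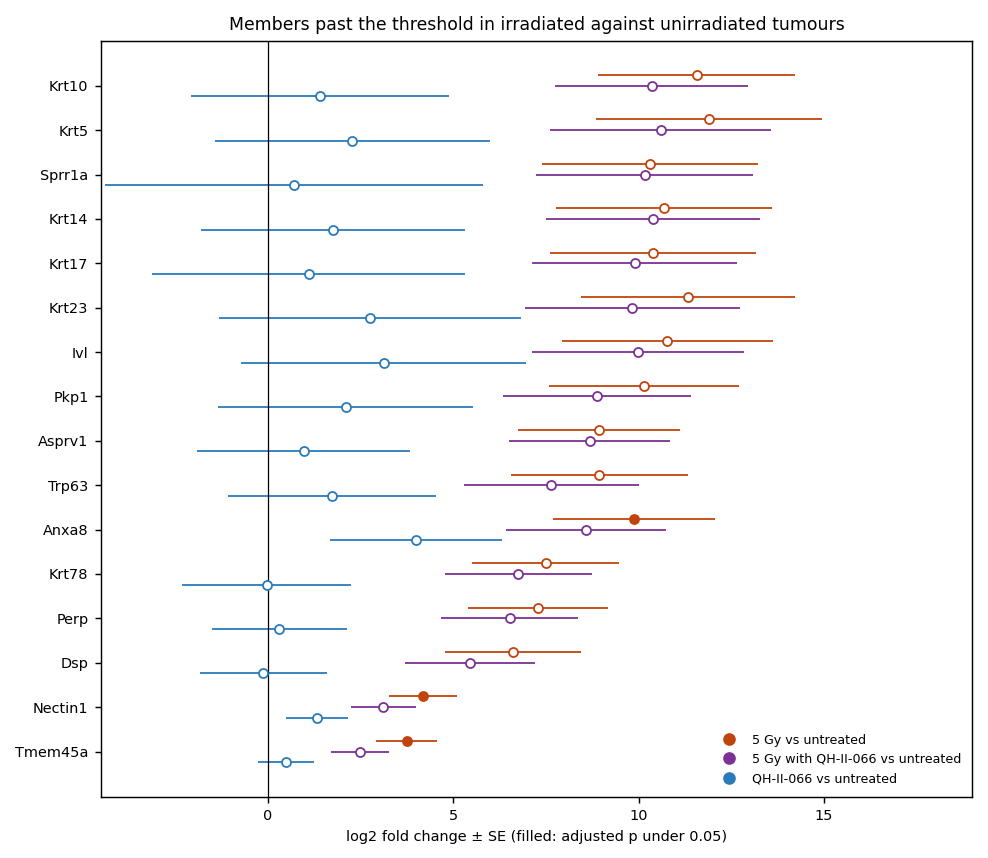
Points are log2 fold changes, and bars are the approximate SE derived from the F statistic of edgeR's test. The 16 members called in irradiated against unirradiated tumours are shown, in 5 Gy, combined and QH-II-066 tumours, each against untreated ones. Filled points have an adjusted p under 0.05, which is the case for Anxa8, Nectin1 and Tmem45a after 5 Gy, while every combined and QH-II-066 point is open.

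With the 5 Gy and combined groups set together against the QH-II-066 and untreated groups, 16 of the 53 tested members rose and 0 fell, where 1.40% of all tested genes were called higher and 0% lower. DESeq2, without the filter and thus not out of the 53, called 45 members, where it called 4.27% of 20002 genes higher and 0.0200% lower. The 16 were 3 basal genes (Krt5, Krt14 and Trp63), 2 suprabasal (Krt10 and Krt78), 3 cornified (Asprv1, Sprr1a and Ivl), 3 of the desmosome (Perp, Dsp and Pkp1), Krt17 of the outer root sheath, and Anxa8, Tmem45a, Krt23 and Nectin1. Krt10 had the highest log2 fold change of the 16 at 10.26 ± 1.78, followed by Krt5 at 10.10 ± 1.98, and Tmem45a the lowest at 2.87 ± 0.56 (edgeR adjusted p = 0.040 for each). Krt15 at 14.12 ± 3.30 and Lor at 12.92 ± 3.03 were not called (edgeR adjusted p = 0.0924 and 0.0926), and Krt16 was at 9.58 ± 2.59 (0.0981). Krt19 and Krt18 of simple epithelia were at -1.92 ± 0.89 and -2.51 ± 1.48 (edgeR adjusted p = 0.430 and 0.589). QH-II-066 replicate 3 held 70.2% and 75.3% of their summed CPM, so these negative values rest largely on that library. The count was 0 without 5 Gy replicate 2 or 4, combined replicate 3 or 4, or any single unirradiated library. It was 34 when 5 Gy replicate 1 was left out and 36 when 5 Gy replicate 3 was. A fit without the 5 libraries with epidermal transcripts, picked by the members' own values, had a loss of calls built in. In that fit, which leaves 1 combined library assumed to vary like the other groups, Krt10 was at 2.37 and Krt5 at 0.84.

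Other epidermal genes outside the set followed it in part. Of all tested genes, 1.25% were called higher in 5 Gy against untreated tumours and 1.40% in irradiated against unirradiated tumours. Of 21 further envelope and barrier lipid genes, 0 were called in 5 Gy against untreated tumours (median log2 fold change 8.01) and 7 were called higher in irradiated against unirradiated tumours, among them Krtdap, a secreted keratinocyte protein (12.58 ± 2.37), Klk7, the protease that sheds corneocytes (11.04 ± 2.34), and Tgm1, the transglutaminase that cross-links the envelope (3.0 ± 0.56). Krtdap stood at 120.5 and 105 CPM in 5 Gy replicates 2 and 4 and at 0 in untreated tumours. Flg2 and Hrnr, relatives of the filaggrin gene, reached 80.8 and 20.9 CPM in 5 Gy replicate 2. Flg itself, with a count of 1 summed over the libraries, was below the minimum. Capture coverage and the counting of shared fragments can differ between genes, so that count does not show that Flg was silent. Abca12, the lipid carrier of lamellar granules, was an exception, at 30.7 to 59.8 CPM over the 16 libraries. Of 8 listed genes of basal cell anchorage and adhesion, 0 were called after 5 Gy and 4 in the irradiated comparison: Col17a1, a hemidesmosome collagen (7.68 ± 1.57), Lamb3, a laminin chain of the basement membrane (4.39 ± 0.97), Cdh3, the gene of P-cadherin (4.24 ± 0.90), and Sfn (3.98 ± 0.87). Sfn encodes stratifin, a cytoplasmic adaptor of keratinocytes that is not an anchor. Of 8 epidermal transcription factors, Klf4 was called in both, at 2.78 ± 0.59 after 5 Gy and 1.83 ± 0.41 in the irradiated comparison, while Tfap2a lay at 39.6 to 72.7 CPM in all libraries. The 8 summed to 230 and 127 CPM in 5 Gy replicates 2 and 4 and 138 CPM in combined replicate 4. In combined replicates 2 and 3 they summed to 80.1 and 69.8 CPM, within the 48.6 to 85.2 CPM of the 11 libraries without epidermal transcripts. Of 5 sebaceous gland genes Awat1, which makes wax esters, was called in the irradiated comparison (5.88 ± 1.33). These edgeR adjusted p lay between 0.040 and 0.0495, and none of the lists had a called gene in the comparisons without a called member.

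Markers of other tissues moved with the epidermal genes in part. The 7 skeletal muscle markers summed to 83.6, 2392, 4.19 and 1676 CPM in 5 Gy tumours, 5.06, 108, 527 and 1112 CPM in combined tumours, 5.24, 4.51, 23.2 and 1097 CPM in QH-II-066 tumours and 3.68, 11.8, 108 and 50.2 CPM in untreated tumours. QH-II-066 replicate 4 thus had 1097 CPM of muscle markers beside 0.186 CPM of basal genes, and combined replicate 2 had 108 CPM beside 546 CPM. The 5 fibroblast markers summed to 2773, 2515, 1629 and 1278 CPM in 5 Gy tumours, 1305, 387, 640.0 and 1239.7 CPM in combined tumours, 369.8, 919, 553 and 781 CPM in QH-II-066 tumours and 383, 276, 298 and 514 CPM in untreated tumours, high also in 5 Gy replicates 1 and 3, where epidermal genes were near 0. All 5 were called higher in 5 Gy against untreated tumours, and 4 of 5 in the irradiated comparison (edgeR), as were 1.25% and 1.40% of all tested genes. The 6 adipocyte markers summed to 176 to 353 CPM in 5 Gy, 57.9 to 196 CPM in combined, 69.4 to 1134 CPM in QH-II-066 and 20.8 to 131 CPM in untreated tumours, and were highest in QH-II-066 replicate 3. The part of these tissues in the differences between groups was not tested. The labels give no batch or date, so none was examined.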

How the data were processed

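RNA of 16 tumours in 4 groups of 4 had been enriched by transcriptome capture and sequenced on an Illumina instrument, per the labels. Reads were aligned with STAR 2.4.1a to mm10, per the submitters' processing notes, and counted per gene with featureCounts 1.6.0 without regard to strand, per the file headers. The deposited values are raw counts per gene, beside the authors' gene length in bases. Capture bait coverage can differ between genes, fragments shared by near-identical genes may be split or dropped, and without strand overlapping genes cannot be told apart. From the counts, CPM values with TMM scaling were computed with edgeR 4.0.16 in R 4.3.3. One model of 4 group means was fitted to the 16 libraries (filterByExpr, robust glmQLFit, glmQLFTest), with Benjamini-Hochberg adjustment over 16101 genes and a threshold of 0.05. It was tested on simulated counts in which changed genes were raised alike in every library of 1 group. The members differed widely between libraries of a group, so the simulation does not show how the fit behaves for them. Alternatives were DESeq2 1.42.0, other size factors (RLE), no filter, a replicate block, leaving out each library, and leaving out the 5 libraries with epidermal transcripts. Groups without overlap were also counted above the level that 3 counts allow, a choice made after seeing the data. Genes were named from a rule: the 12 listed members, up to 5 per role and up to 4 per other list by mean CPM per kilobase, and the called members of each comparison (the 6 highest and 6 lowest in fold change where over 12 were called). Others were added after their values were seen. The members and the gene lists were chosen with earlier results of these data known. Libraries differ in depth, from 6994198 to 40799942 counts, and combined replicate 4 resolves low levels least. Genes with fewer than 10 summed counts were left out.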

Additional observations from a re-analysis of the deposited data

Results flagged for a closer look

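In groups of 4 libraries with a mean of at least 1 CPM, the highest or lowest library was compared with the nearest other one by Dixon's ratio. A library stood apart in 37 of 119 groups. The groups examined were not independent, since sums over a role hold genes also examined singly, so no rate by chance is given. The 37 fell into 3 patterns and 2 further cases.

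In 5 Gy replicate 2 the keratins of the hair follicle stood apart from the other 5 Gy tumours. The inner root sheath members reached 428 CPM for Krt71, 312 for Krt25, 145 for Krt27, 69.1 for Krt28 and 68.5 for Krt73, with a sum of 1072 CPM. Krt75 of the companion layer stood at 66.2 CPM. The hair shaft members reached 56.2 CPM for Krt83, 51.5 for Krt35, 48.5 for Krt81, 42.1 for Krt86 and 28.0 for Krt34, with a sum of 302 CPM.

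In combined replicate 4 the same genes stood apart from the other combined tumours, together with 3 others. The values were 186 CPM for Krt71, 128 for Krt25, 70.6 for Krt27, 28.1 for Krt28 and 29.6 for Krt73, with a sum of 463 CPM. They were 25.2 CPM for Krt75, 28.7 for Krt83, 18.5 for Krt35, 27.8 for Krt81, 22.9 for Krt86 and 18.9 for Krt34, with a shaft sum of 154 CPM. Krt77 at 311, Lor at 103 and Tmem45a at 23.7 CPM were also far above the other combined tumours.

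QH-II-066 replicate 3 stood apart from its group in simple epithelial keratins, at 24.4 CPM for Krt19, 14.9 for Krt18, 12.6 for Krt8 and 5.74 for Krt7, with a sum of 57.8 CPM, and in the basal sum at 4.16 CPM. Combined replicate 2 was far above its group in Krt16, at 221 CPM. QH-II-066 replicate 1 was far below its group in the sum of the members outside the other roles, at 4.05 CPM.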

How the results depend on the processing

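With DESeq2 in place of edgeR, 38 members were called in 5 Gy against untreated tumours, 27 in combined against untreated, 45 in irradiated against unirradiated, 1 in QH-II-066 against untreated, 0 in combined against 5 Gy and 1 in the interaction. With RLE size factors 4 and 16 were called in the first comparison and in irradiated against unirradiated tumours, and with no filter on low counts 0 and 0. The labels do not say what a replicate number marks. The 24 same-numbered pairs had correlations of their deviations from -0.426 to 0.484 (median 0.0989). In the 72 other pairs they ran from -0.666 to 0.692 (median -0.0395). These overlapping ranges cannot tell whether same-numbered libraries share anything, and the main fit was unpaired. With the replicate block 5 members were called after 5 Gy and 16 in irradiated against unirradiated tumours, and 0 in the other 4 comparisons. Leaving out each library in turn gave 0 to 19 and 0 to 36 members in these 2 comparisons and 0 throughout in the other 4. A further fit left out the 5 libraries with epidermal transcripts, picked by their basal members after seeing the data, and kept 1 combined library. A loss of member calls was built into that choice, so it tests nothing. Of the 19 values of single called members, 14 were available there. In it 3 members called in irradiated tumours changed sign: Krt14 at -0.21, Dsp at -0.42 and Trp63 at -0.13. The cause of these changes was not tested. Apart from DESeq2, the share of all genes called under these alternatives is not given. The member counts therefore cannot show whether calls changed in the members alone or across the tested genes. The 19 values of single called members kept their direction and call with DESeq2 and with RLE, none passed without the filter, and 6 of 19 did not pass with the block. Depth limits combined replicate 4, where a count of 0 allows up to 0.447 CPM.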

Other observations

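Genes counted mainly in a single library were listed for the 2 libraries that stood apart in simple epithelial or injury keratins, a choice made after their values were seen. In QH-II-066 replicate 3 Dmbt1, a mucosal scavenger receptor, stood at 14.3 CPM against at most 0.569 elsewhere, Aqp5, a water channel of glands, at 6.23 against 0.595, Wfdc2 at 5.18 against 0.501, and Ltf, the gene of lactoferrin, at 9.91 against 1.47 CPM. In combined replicate 2 the stefins Stfa1 and Stfa3 stood at 18.1 and 29.7 CPM against at most 0.282 and 2.07 elsewhere. S100a8 and S100a9, calcium-binding proteins of neutrophils and of injured epidermis, stood at 33.8 and 37.5 CPM there, against at most 2.81 and 3.38 CPM elsewhere. Klk6, a protease of the kallikrein family, was at 28.7 CPM there and at most 4.01 elsewhere. These are single libraries, so no test was made.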
